A study of Mus musculus with 8 samples.

Results

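The apolipoproteins examined here were the 10 genes Apoa1, Apoa2, Apoa4, Apoa5, Apob, Apoc1, Apoc2, Apoc3, Apoe and Apom. They were taken as the array probes whose gene name equals a member's symbol, which gave 17 of the 56605 non-control probes and 10 of the 17565 genes tested. Total RNA was measured in livers of male mice 8 h after acetaminophen, with 4 samples from mice aged 80 weeks and 4 from mice aged 8 weeks. All 8 samples had received the drug, whose reactive oxidation product injures hepatocytes, and untreated livers were not analysed here. Nothing in the sources used here gives the strain or the dose, or says that the samples came from separate animals. The p-values then cover only the variation among these arrays, and that variation may be technical. Each sample was hybridised to its own single-colour Agilent array.

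Apolipoproteins are the protein coat of lipoproteins, the particles that carry triglyceride and cholesterol through blood. The liver secretes very low density lipoprotein (VLDL) built around Apob, and it makes most of the protein of high density lipoprotein (HDL). Smaller members exchange between particles, where they switch lipases on or off and act as ligands for receptors that clear remnants. Several of these transcripts are among the most abundant messages of the hepatocyte. Apoa1, Apoa4 and Apob are also made by the intestine, and Apoe by macrophages.

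The 10 genes include a pair of chromosomal clusters. The probes of Apoa1, Apoc3, Apoa4 and Apoa5 lie within 41570 bases of chromosome 9, and those of Apoe, Apoc1 and Apoc2 within 24765 bases of chromosome 7, in the mm9 coordinates of the array files. Apoa2, Apob and Apom are on chromosomes 1, 12 and 17. Because the members are related, the probes were compared with each other: over 128 pairs of probes for different members, the longest run of identical bases was 9, between an Apoc3 and an Apoe probe. The probes printed here are those of the genes on which the account turns, each as the array file gives it, 5′ to 3′ and in lower case throughout because no base needs marking. Each can be read through without a stop codon in at least 1 frame. The Apom probe (chr17:35267047-35267106, minus strand), the Apoa4 probe (chr9:46051206-46051266, plus strand) and the Apoa1 probe (chr9:46037921-46037980, plus strand) are the only probes of their genes. The Apoe probe shown (chr7:20281732-20281791, minus strand) is the brighter of 2. The Apob probe shown (chr12:7992933-7994547, plus strand) is the dimmer of 2, and its 60 bases span 1615 bases of the genome, so that it bridges an intron.
Apom probe: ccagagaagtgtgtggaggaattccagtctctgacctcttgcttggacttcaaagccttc
Apoa4 probe: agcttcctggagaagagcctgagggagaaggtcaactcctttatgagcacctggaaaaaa
Apoa1 probe: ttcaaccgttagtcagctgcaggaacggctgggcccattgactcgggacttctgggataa
Apoe probe: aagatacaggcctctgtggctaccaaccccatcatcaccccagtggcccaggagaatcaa
Apob probe: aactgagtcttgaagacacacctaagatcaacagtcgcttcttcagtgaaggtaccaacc

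Values below are log2 processed intensity minus the array's own 75th percentile, unless they are called unscaled. A value of 8 therefore lies 8 log2 units above that percentile, and levels of different genes are not compared because each probe has its own response. Differences are 80-week minus 8-week, tested with limma over all 17565 genes, and a gene passed when its Benjamini-Hochberg adjusted p was under 0.05. All 10 hepatocyte markers checked were above background on every array, as a liver label requires. Of 7 enterocyte markers, Cdh17, Sis and Lct were above background on none, whereas 2, Fabp2 and Anpep, were above it on every array. The enterocyte list thus did not go one way. The first principal component of all tested genes, which held 49.1% of the variance, placed 8-week replicates 1 and 2 at 61.3 and 99.2, whereas the 80-week arrays lay between -47.5 and -17.0 and 8-week replicates 3 and 4 at -10.2 and -12.3. Array weights estimated by limma were lowest for 8-week replicates 1 and 2, at 0.436 and 0.181. Results are therefore also given without these 2 arrays. On the slide, row 2 held all 80-week samples and row 1 all 8-week samples, so an effect of row and one of age cannot be told apart.

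The livers of both ages carried strong signal for every apolipoprotein, and no member differed between 80-week and 8-week livers past the threshold. All 17 probes were above background on all 8 arrays. Of the 10 members, 0 passed, where 63 of all 17565 genes (0.359%) did, 58 of them higher and 5 lower in 80-week livers. At an unadjusted p under 0.05 the count was 0 of 10 members and 2468 of all genes, and the smallest adjusted p was 0.368, for Apom. In 0 of 10 members were the 4 samples of one age all above or all below those of the other, against 8.38% of all genes tested. The difference was positive for 7 members and negative for 3, with a median of 0.07 on the log2 scale, beside a median of 0.02 and 52.0% positive differences over all genes. Neither count sets the members apart from the rest of the array. In whole liver, fewer hepatocytes and less RNA per hepatocyte cannot be told apart.

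**Figure D1:**
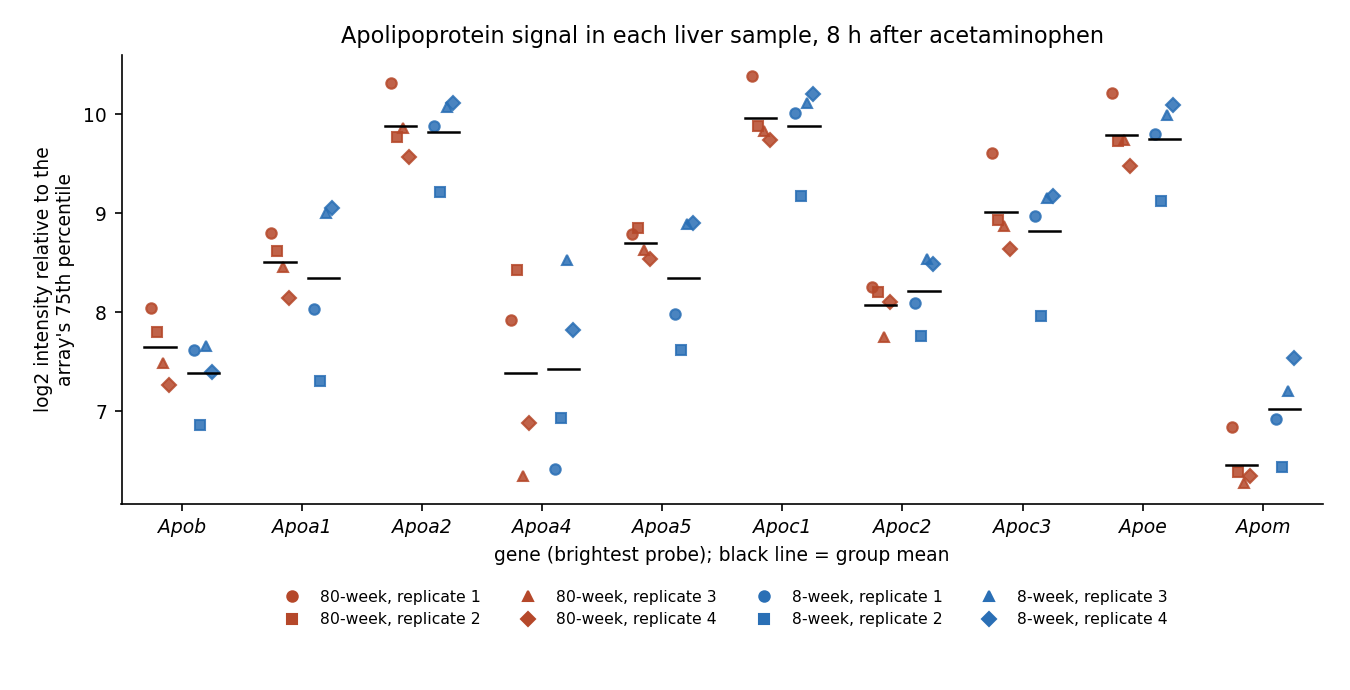
The vertical axis gives log2 intensity relative to the array's 75th percentile for the brightest probe of each of the 10 genes, with 80-week livers at the left (red) and 8-week livers at the right (blue) of each gene. Points are single samples, with a shape for each replicate, and black lines are group means. The ages overlap for every gene, and the 8-week replicate 2 square is the lowest of all 8 points for 7 of the 10 genes.

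Apob, the large structural protein of VLDL, was at 8.04, 7.80, 7.49 and 7.26 in 80-week livers, against 7.62, 6.86, 7.66 and 7.39 in 8-week livers. The 80-week replicates 1 and 2 were the highest arrays and 8-week replicate 2 the lowest, and the other 5 arrays were interleaved. The log2 difference was 0.26 (SE 0.25, 95% interval -0.30 to 0.83, limma adjusted p = 0.636). The second Apob probe, shown above, gave 0.35 (SE 0.24). Without 8-week replicates 1 and 2 the difference was 0.12, which made Apob the single member with a positive value in that fit.

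Apoa1, the main protein of HDL and the activator of the enzyme that esterifies its cholesterol, was at 8.81, 8.62, 8.46 and 8.14 in 80-week livers. In 8-week livers it was at 8.03, 7.30, 9.003 and 9.05. The 8-week group thus split, with replicates 1 and 2 below every 80-week sample and replicates 3 and 4 above every one. The mean difference over all 8 arrays was 0.16 (SE 0.38, 95% interval -0.70 to 1.02, limma adjusted p = 0.862). Without 8-week replicates 1 and 2 it was -0.52 (95% interval -1.03 to -0.01, limma adjusted p = 0.546). The sign of the Apoa1 difference was therefore set by which young samples were kept.

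Apoa2, the second protein of HDL, was at 10.32, 9.78, 9.86 and 9.57 in 80-week livers, against 9.88, 9.22, 10.08 and 10.11 in 8-week livers. Its log2 difference was 0.06 (SE 0.26, 95% interval -0.52 to 0.64, limma adjusted p = 0.929). The 80-week replicate 1 sample was the highest of all 8 arrays and the 8-week replicate 2 sample the lowest, while the other 3 samples of the 80-week group lay below the other 3 of the 8-week group. Its 2 probes gave differences of 0.06 and 0.09.

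Apom, a lipocalin of HDL that carries sphingosine 1-phosphate, was at 6.84, 6.39, 6.27 and 6.34 in 80-week livers, against 6.92, 6.44, 7.20 and 7.54 in 8-week livers. On this scale the groups met at 80-week replicate 1, which lay above 8-week replicate 2 and below the other three. The log2 difference of -0.56 (SE 0.26, 95% interval -1.15 to 0.02, unadjusted p = 0.0569, limma adjusted p = 0.368) was the largest in size of the 10 members and did not pass. As unscaled intensity Apom had 17730, 17996, 16893 and 21465 units in 80-week livers, against 27217, 30612, 26445 and 33051 units in 8-week livers. Here all 4 samples of the older mice were below all 4 of the younger, with means of 18521 ± 2018 and 29331 ± 3070 units in 80-week and 8-week livers (SD, n = 4 each).

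Apom was the only 1 of the 10 members whose unscaled groups did not overlap, where 3.82% of all genes tested had groups that did not overlap. The groups were also apart when Apom was set relative to the mean of the 10 hepatocyte markers on its own array, at a log2 difference of -0.60 (SE 0.25, limma adjusted p = 0.551), where 3.64% of all genes were without overlap. Without 8-week replicates 1 and 2, which had the lowest scaled Apom of that age, the difference was -0.91 (95% interval -1.43 to -0.39, limma adjusted p = 0.323). It was negative in the reported setting and in each of the 24 alternatives, from -0.91 to -0.39, and the adjusted p ran from 0.0663 to 0.646. The sign was thus shared by these settings, which use the same arrays, and the threshold was passed in none.

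**Figure D2:**
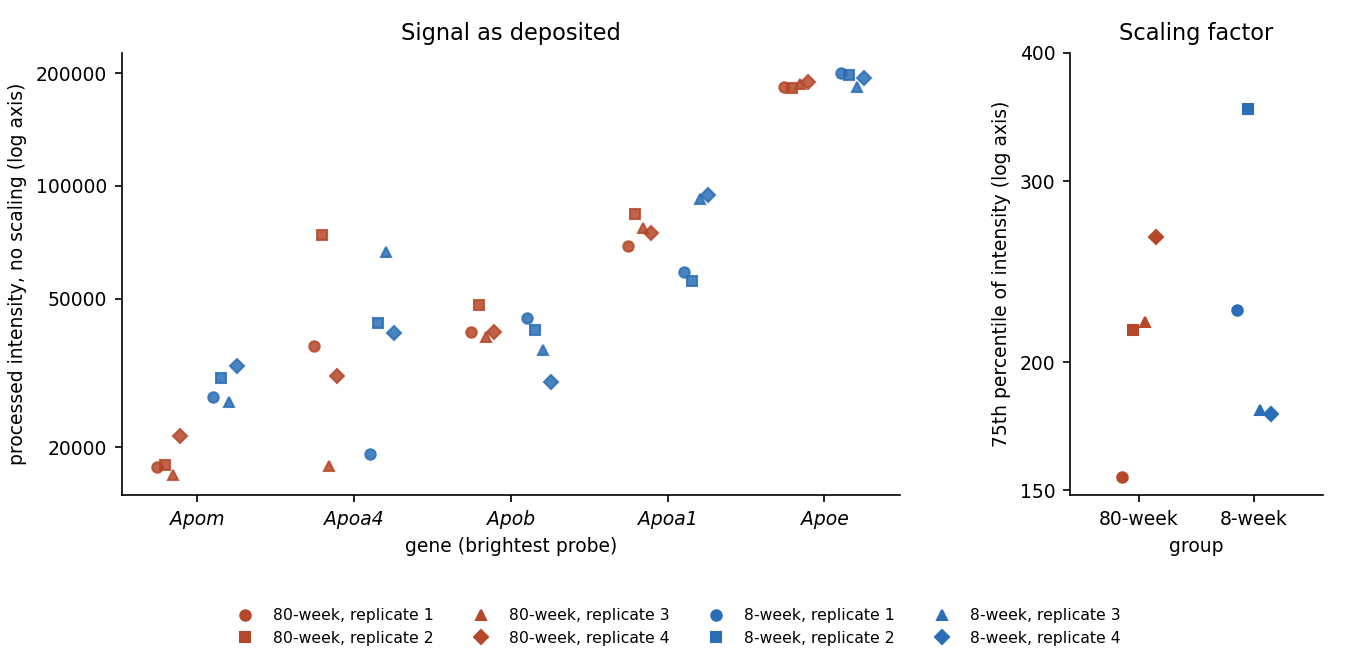
The left panel gives processed intensity without scaling, on a log axis, for the brightest probe of 5 genes in each 80-week (red, left) and 8-week (blue, right) sample, and the right panel gives the 75th percentile of each array, also on a log axis. The Apom samples of the 80-week group all lie below those of the 8-week group, Apoa4 spreads widely within both ages, and Apoe hardly moves while the scaling factor ranges from 154.7 to 352.8.

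Apoa4, a protein of intestinal and hepatic particles that mouse liver makes more of when it holds fat, varied more between samples than any other member. It was at 7.92, 8.42, 6.35 and 6.88 in 80-week livers, against 6.42, 6.93, 8.53 and 7.82 in 8-week livers. Each age had 2 samples at or above 7.82 and 2 at or below 6.93, so the spread lay within the ages and not between them. The SD was 0.95 in 80-week and 0.94 in 8-week livers, and the log2 difference was -0.03 (SE 0.55, 95% interval -1.28 to 1.21, limma adjusted p = 0.982). That interval allows a level in 80-week livers between 0.412 and 2.31 times that in 8-week livers, so a change of either sign within those bounds is compatible with the data. Unscaled, Apoa4 ran from 17806 to 73775 units, a 4.14-fold range. Without 8-week replicates 1 and 2 the difference was -0.79, with a limma adjusted p of 0.721.

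Among genes outside the family, the pattern most like that of Apoa4 over the 8 arrays was that of Itga10, an integrin subunit. The measure was the root mean square difference between log2 values centred on each gene's mean, which was 0.283 for Itga10, 0.303 for Thoc6, 0.323 for Myh10, 0.396 for Gm38832 and 0.426 for Car15. The nearest member was Apoa1, at 0.620. The genes searched outside the family were far more numerous than the members, so a closer match there is likely from the search alone. Itga10 was also dim, at -2.33 to -0.56 over the 8 arrays. The other cluster neighbours on chromosome 9 had SDs over the 8 arrays down to 0.476, against 0.874 for Apoa4.

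Apoa5, which raises the clearance of triglyceride by lipoprotein lipase, was at 8.79, 8.85, 8.63 and 8.54 in 80-week livers, against 7.98, 7.62, 8.89 and 8.91 in 8-week livers. On this scale it repeated the split seen for Apoa1, with 8-week replicates 1 and 2 below and replicates 3 and 4 above all 80-week samples. Unscaled, the split remained for Apoa1 but not for Apoa5. There 8-week replicates 3 and 4 had 85178 and 85442 units of Apoa5, below the 86733 of 80-week replicate 3. The log2 difference was 0.35 (SE 0.31, 95% interval -0.33 to 1.04, limma adjusted p = 0.601), and it was -0.19 without 8-week replicates 1 and 2. The SD was 0.14 in 80-week and 0.65 in 8-week livers. The second probe gave a difference of 0.37.

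The C apolipoproteins are small exchangeable proteins. Apoc2 is the cofactor that lipoprotein lipase requires, Apoc3 slows lipolysis and remnant uptake, and Apoc1 inhibits lipoprotein uptake and remodelling. Apoc2 was at 8.26, 8.20, 7.75 and 8.10 in 80-week livers, against 8.09, 7.76, 8.53 and 8.49 in 8-week livers. Its log2 difference was -0.14 (SE 0.23, 95% interval -0.65 to 0.37, limma adjusted p = 0.790), and it was -0.44 without 8-week replicates 1 and 2. Its second probe gave -0.15. As with Apom, the sign was negative in the reported setting and all 24 alternatives, and the ages overlapped.

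Apoc3 was at 9.61, 8.93, 8.88 and 8.64 in 80-week livers, against 8.98, 7.96, 9.16 and 9.17 in 8-week livers. The 8-week replicate 2 sample stood about a log2 unit below the other samples of its age. The difference was 0.20 (SE 0.32, 95% interval -0.53 to 0.92, limma adjusted p = 0.793), and -0.15 without 8-week replicates 1 and 2. The other 2 Apoc3 probes gave 0.27 and 0.40, the larger from a dim probe with 141 to 302 units.

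Apoc1 was at 10.39, 9.88, 9.83 and 9.74 in 80-week livers, against 10.01, 9.17, 10.12 and 10.21 in 8-week livers. The difference was 0.08 (SE 0.27, 95% interval -0.52 to 0.69, limma adjusted p = 0.902). The ages overlapped, with 80-week replicate 1 the highest array and 8-week replicate 2 the lowest.

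Apoe, the ligand by which remnants bind Lrp1 and other receptors, was at 10.21, 9.73, 9.74 and 9.48 in 80-week livers, against 9.80, 9.13, 9.9996 and 10.09 in 8-week livers. The difference was 0.04 (SE 0.26, 95% interval -0.55 to 0.62, limma adjusted p = 0.957), and 0.07 with the second probe. As unscaled intensity Apoe lay between 182558 and 200480 units on all 8 arrays, a 1.098-fold range. Unscaled Apoa2 ranged 1.12-fold and Apoc1 1.17-fold, while the 75th percentile that divides them ranged over 1.19 log2 units between arrays. For each of these 3 genes the highest scaled value was that of 80-week replicate 1, the array with the lowest percentile, and the lowest was that of 8-week replicate 2, the array with the highest. No spot was marked as saturated on any array, but whether probes this bright respond in proportion to their transcript was not tested. The dimmer second probes varied more, from 107938 to 139912 units for Apoe and from 133014 to 159900 for Apoa2. Without scaling, Apoa2, Apoc1 and Apoe gave -0.04, -0.02 and -0.06, and the median of the 10 members was -0.03 beside -0.08 for all genes.

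Most members had their lowest scaled value on the same array. The array that was lowest for 7 of the 10 genes, 8-week replicate 2, also had the lowest scaled mean of the 10 hepatocyte markers, at 8.53 where the other 7 arrays had 8.93 to 9.64. It was also the array with the highest 75th percentile, 352.8 units, which is subtracted from all of these values. Unscaled, it was the lowest array for Apoa1 and Apoc3, but not for Apoa2, Apoa5, Apob, Apoc1 or Apoe. Its unscaled Apoe, at 197647 units, lay near the top of that gene's range. The SD was larger in 8-week than in 80-week livers for 9 of the 10 members. Over all genes the median SD was 0.284 in 80-week and 0.404 in 8-week livers. Without 8-week replicates 1 and 2, 1 of 10 differences was positive, the median was -0.23, and 0 of 10 passed, where 0.0797% of all genes did. In that fit 0 of 10 hepatocyte markers were positive, with a median of -0.15, and the median of all genes was -0.06. With array weights, which reduce the share of those arrays, 1 of 10 was positive and 0 passed, where 0.979% of all genes did. Leaving out 80-week replicate 1 alone gave 3 positive of 10, whereas leaving out 80-week replicate 2, 3 or 4 gave 7, 8 and 8. Median scaling and no scaling each gave 4, quantile scaling 7 and hepatocyte marker scaling 6. The direction of the group of genes as a whole was thus not settled by these samples.

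**Figure D3:**
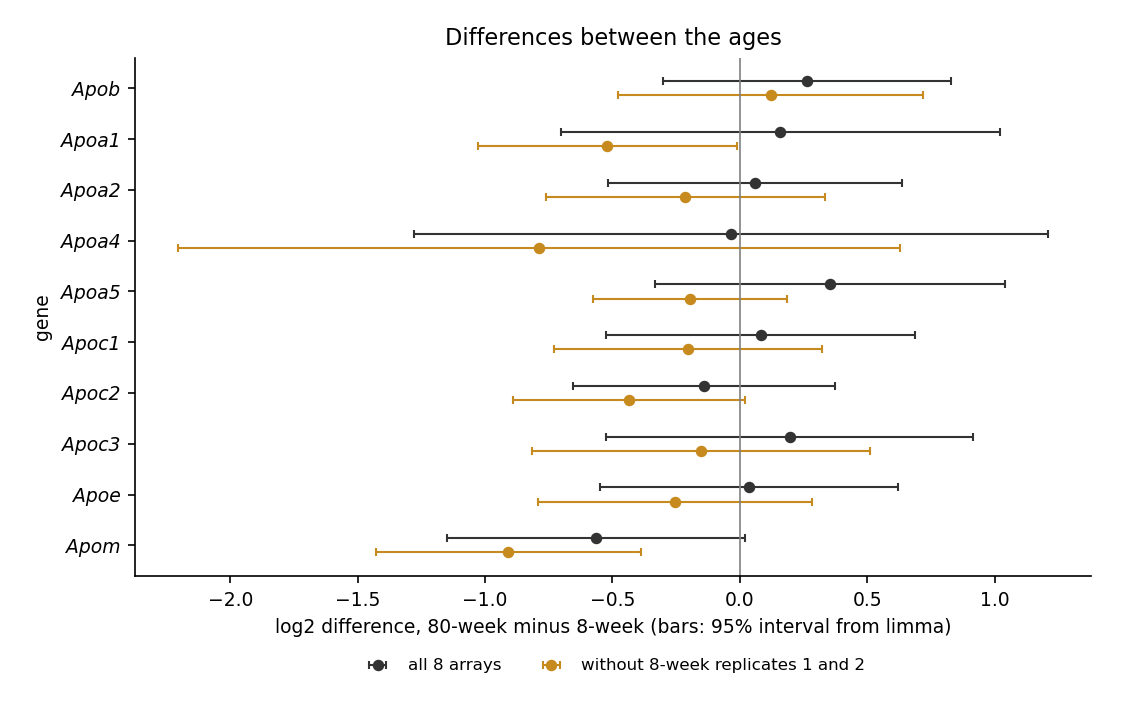
Each row gives the log2 difference of a gene, 80-week minus 8-week, with its 95% interval from limma, over all 8 arrays (black) and without 8-week replicates 1 and 2 (amber). With all arrays every interval includes 0. Without the 2 arrays those of Apom (-1.43 to -0.39) and Apoa1 (-1.03 to -0.01) do not, and neither gene passed after adjustment. The 2 arrays were singled out from these same data and hold the lowest scaled 8-week values of both genes. These intervals therefore depend on that choice.

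The other genes of lipoprotein handling were read from lists in the same fit. Of 9 further apolipoprotein genes, 7 differences were positive and 0 passed, with a median of 0.10. Of the 9, 4 were positive without 8-week replicates 1 and 2, and the median was then -0.16. Apoc4, which lies between Apoc1 and Apoc2 on chromosome 7, had 0.25 (SE 0.30). Apod, a lipocalin made by many tissues, had the lowest value, -1.43 (SE 0.53, limma adjusted p = 0.306), with signal above background on 2 of 4 arrays from 80-week and 4 of 4 from 8-week livers. With normexp background correction, which raises dim signals, the Apod difference was -0.63. Saa4, an HDL-bound serum amyloid, had 1.22 (SE 0.50) and Apon had 0.81 (SE 0.36), neither past the threshold. Without 8-week replicate 2 alone they were 0.74 and 0.48, and without 8-week replicates 1 and 2 they were 0.80 and 0.18.

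Of 11 genes for VLDL assembly and secretion, 7 were positive and 0 passed, with a median of 0.16. Of the 11, 2 were positive without 8-week replicates 1 and 2, and the median was then -0.24. Mttp, which loads lipid onto nascent Apob, had -0.13 (SE 0.27), and Apobec1, the enzyme that edits the Apob message, had -0.26 (SE 0.25). The mean of the tested Apobec1 probes gave -0.54 (SE 0.24), and without 8-week replicates 1 and 2 Apobec1 had -0.51. Mia2, which helps export large cargo from the endoplasmic reticulum, was the single gene of this list without overlap, at 5.54 ± 0.07 in 80-week and 5.06 ± 0.40 in 8-week livers (SD, n = 4 each). That is 1 of 11, beside 8.38% of all genes tested. The Mia2 difference was 0.49 (SE 0.22, limma adjusted p = 0.363), and it was 0.30 without 8-week replicate 2 and 0.21 without 8-week replicates 1 and 2. The mean of the tested Mia2 probes gave 0.34.

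Of 15 receptors for these particles and regulators of the receptors, 10 were positive and 0 passed, with a median of 0.31. Of the 15, 3 were higher and 1 lower without overlap, beside 8.38% of all genes tested in either direction. Lrp1, the remnant receptor, was at 3.78, 3.87, 3.82 and 3.87 in 80-week livers, against 2.96, 2.77, 3.43 and 3.19 in 8-week livers. All 80-week samples were above all 8-week samples, with a difference of 0.74 (SE 0.19, limma adjusted p = 0.173). That value is of the brightest probe, and the mean of the tested Lrp1 probes gave 0.25 (limma adjusted p = 0.637). Scarb1, the HDL receptor, gave 0.51 (SE 0.18, limma adjusted p = 0.305) and Cd36, a fatty acid transporter, 1.61 (SE 0.59, limma adjusted p = 0.305). Lsr, a remnant receptor chosen for mention after its values were seen, was the 1 receptor lower without overlap, by a difference of -0.18 (SE 0.16, limma adjusted p = 0.607). Without 8-week replicates 1 and 2 the median of this list was 0.13, with Lrp1 at 0.52.

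Of 9 genes for HDL assembly and cholesterol efflux, 7 were positive and 0 passed, with a median of 0.76 that was 0.48 without 8-week replicates 1 and 2. Of the 9, 1 was higher and 0 lower without overlap, beside 8.38% of all genes tested in either direction. Pdzk1, the adaptor that holds Scarb1 at the hepatocyte surface, was without overlap at 4.57, 4.68, 4.88 and 4.79 in 80-week livers, against 2.83, 2.66, 4.18 and 4.26 in 8-week livers. Its difference was 1.25 (SE 0.38, limma adjusted p = 0.251) and 0.51 without 8-week replicates 1 and 2, which were its lowest arrays. Abcg5 and Abcg8, which together export sterol into bile, had 1.04 (SE 0.38) and 1.08 (SE 0.42), and 0.51 and 0.48 without those 2 arrays. Abca1, which lipidates Apoa1, had -0.29 (SE 0.23), and Lcat, the enzyme that Apoa1 activates, had 0.31 (SE 0.31). Of 7 lipases and regulators tested of 8 listed, 5 were positive and 0 passed, with a median of 0.21. Of the 7, 1 was positive without 8-week replicates 1 and 2, and the median was then -0.09. Lpl had -0.44 (SE 0.32), or -0.05 without those arrays, and hepatic lipase Lipc 0.34 (SE 0.27).

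Of 23 transcription factors known to act on apolipoprotein genes, 19 were positive and 0 passed, with a median of 0.23 that was 0.00 without 8-week replicates 1 and 2. Of the 23, 3 were higher and 1 lower without overlap, beside 8.38% of all genes tested in either direction. Hnf4a, the hepatocyte factor that drives most of the family, had 0.15 (SE 0.22), Nr1h3 had 0.21 (SE 0.21) and Creb3l3, which raises Apoa4, Apoa5 and Apoc2, had 0.17 (SE 0.24). Srebf1, the lipogenic factor, had 1.29 (SE 0.33, limma adjusted p = 0.172). Ppara, which governs fatty acid oxidation, had 1.00 (SE 0.29, limma adjusted p = 0.227) and Mlxipl 0.58 (SE 0.21, limma adjusted p = 0.300), both without overlap. The mean of the tested Mlxipl probes gave 0.28. Rxra, at 0.63 (SE 0.23) and 0.27 without 8-week replicates 1 and 2, was higher without overlap and Foxa2, at -0.83 (SE 0.30), lower without overlap; both were named after their values were seen.

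**Figure D4:**
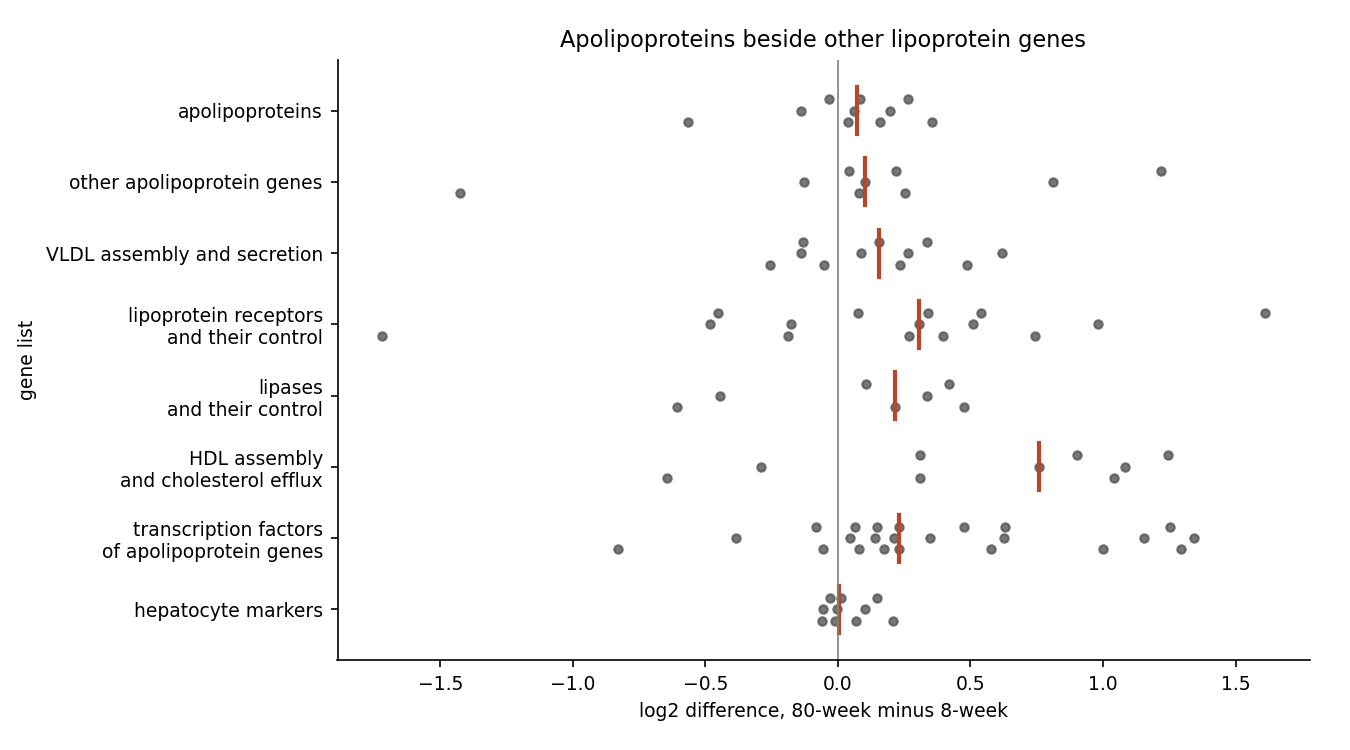
Points are the log2 differences, 80-week minus 8-week, of the tested genes of 8 lists, spread vertically only for legibility, and red bars are list medians. The apolipoproteins and hepatocyte markers gather near 0, with medians of 0.07 and 0.00, whereas the HDL and efflux genes have a median of 0.76 over a wider range.

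Markers of the cell types in liver were summed per array as intensity relative to the 75th percentile. The 10 hepatocyte markers, of which 10 were tested, 5 were positive and 0 passed, summed to 5214 to 8561 in 80-week and 3974 to 7325 in 8-week livers. The 11 Kupffer cell markers, resident macrophages that also make Apoe, summed to 134 to 373 in 80-week and 116 to 243 in 8-week livers, and 0 passed. The sums for 9 monocyte and macrophage markers were 62.7 to 149 in 80-week and 69.2 to 199.8 in 8-week livers, and 0 passed. Of these 9, 4 differences were positive and 5 negative, and 1 gene was higher and 1 lower without overlap. Over all genes tested, 8.38% were without overlap. The sums for 7 neutrophil markers were 26.3 to 124 in 80-week and 78.8 to 153 in 8-week livers, and 0 passed. Those for 8 stellate cell markers were 26.6 to 44.3 in 80-week and 33.0 to 42.0 in 8-week livers, and 0 passed. Among 5 adipocyte markers, Cidea, a lipid droplet protein, was past the threshold, at 8.97 (SE 0.64, limma adjusted p = 0.000752). Its probe exceeded background on 4 of 4 arrays from 80-week and 3 of 4 from 8-week livers, so the size of the difference rests in part on dim signal, and it was 7.29 with normexp. The 5 markers summed to 41.2 to 201 in 80-week and 20.3 to 39.9 in 8-week livers. Without Cidea the other 4 summed to 17.9 to 27.5 in 80-week and 20.1 to 39.8 in 8-week livers. The 2 enterocyte markers tested, of 7 listed, summed to 143 to 165 in 80-week and 57.0 to 144 in 8-week livers. The part of cell makeup in the apolipoprotein values was not tested.

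In the RefSeq windows of GRCm38.p6 around the transcription start, mostly upstream of it, 8 of the 10 members were matched by symbol, with 12 windows. A gene was counted when any of its windows of 300 bases held the letters. The letters TATAAA, on either strand, occurred in 4 of the 8 (Apoa2, Apoa5, Apob and Apoe), against 15.7% of 27025 genes. AGGTCA, the core of nuclear receptor sites, occurred in 2 (Apoa2 and Apoc2), against 18.1%, and CACGTG in 1 (Apoa5), against 8.09%. CAAAGTCCA and TGACGT occurred in 0, against 0.555% and 8.37%. These motifs differ in letters and were counted separately. Neither Apom, which has the largest difference, nor Apoa4, which has the largest spread, was among the members found to hold any of them. A member without a matched window could not be counted.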

How the data were processed

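Liver total RNA from 8 samples was read on 8 single-colour Agilent arrays, on 1 slide in 1 scan. The authors deposited spot intensity values already background-corrected by Feature Extraction 10.7.3.1, per the file headers (the processing notes of the submitters give 9.1). Their deposited table matched that signal within 1% and served as an alternative. From the deposited intensity, log2 values were taken, spots marked as outliers (59 to 97 per array) were left out, spots of a probe averaged and each array's 75th percentile (154.7 to 352.8 units) subtracted. Probes well above background on at least 4 of 8 arrays were tested, and a gene was its brightest tested probe. On each array 24537 to 28536 probes were above background and 0 spots were saturated. The number of arrays limits the precision.

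The 80-week and 8-week groups were tested with lmFit and eBayes of limma 3.58.1 (R 4.3.3), run first on simulated data. Members, lists and the naming rule (all members, up to 4 list genes of smallest p, and direct partners, of which 27 list genes are named, others not being reported here) were chosen with earlier results of these data known. RefSeq tables gave symbols and promoter windows. The alternatives were normexp with an offset of 50, quantile, median, hepatocyte marker or no scaling, other filters, probe means, other variance models, array weights, a replicate block, outlier spots kept, the deposited table and arrays left out. The absence of scaling, and all alternatives for list genes, were chosen after seeing the data.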

Additional observations from a re-analysis of the deposited data

Results flagged for a closer look

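Of 74 groups of 4 values examined, 4 (5.41%) held a sample whose gap to its nearest neighbour exceeded Dixon's 95% critical share of the group's range, and chance marks about 1 in 20 groups. Apoc3 in 8-week replicate 2 was at 7.964, where the other 8-week samples had 8.98 to 9.17. Creb3l3 in the same sample was at 7.326, where the others had 8.12 to 8.28. Abca1 in 80-week replicate 2 was at 4.096, where the other 80-week samples had 3.39 to 3.40. Apod in 80-week replicate 1 was at -2.701, where the others had -3.31 to -3.22.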

How the results depend on the processing

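Under 24 alternatives the number of members past the threshold was 0 in each, while the count over all genes ran from 14 (without 8-week replicates 1 and 2) to 172 (array weights), beside 63. Apom and Apoc2 kept a negative and Apob a positive sign throughout, though single arrays moved Apoc2 and Apob over 1.5 times. Apom ran from -0.76 without 8-week replicate 2 to -0.39 without 8-week replicate 4. Apoc2 was -0.032 without 80-week replicate 3, -0.036 and -0.050 without 8-week replicates 3 and 4 and -0.29 without 8-week replicate 2. Apob was 0.13 without 80-week replicate 1 and 0.090 without 8-week replicate 2. Apoa5 was 0.23 without 8-week replicate 1, 0.11 without 8-week replicate 2 and 0.54 without 8-week replicate 3 or 4. Leaving out 8-week replicates 1 and 2 turned Apoa1 to -0.52, Apoa2 to -0.21, Apoa5 to -0.19, Apoc1 to -0.20, Apoc3 to -0.15, Apoe to -0.25, Apoc4 to -0.19, Lipc to -0.021, Lcat to -0.11, Hnf4a to -0.11 and Creb3l3 to -0.089. Array weights turned Apoa1 to -0.41, Apoa2 to -0.22, Apoa5 to -0.083, Apoc1 to -0.21, Apoc3 to -0.17, Apoe to -0.25, Apoc4 to -0.11, Lcat to -0.040, Hnf4a to -0.055 and Creb3l3 to -0.049. Median scaling gave Apoa2 -0.045, Apoc1 -0.023 and Apoe -0.068, beside a median of -0.09 over all genes, which was 0.02 in the scaling reported. No scaling gave Apoa2 -0.040, Apoc1 -0.018 and Apoe -0.063. Apoe was -0.000646 with hepatocyte marker scaling and -5.2e-06 with normexp and quantile scaling. Leaving out each array in turn, differences ran from -0.19 to 0.39 for Apoa1, -0.14 to 0.16 for Apoa2, -0.38 to 0.33 for Apoa4, -0.15 to 0.19 for Apoc1, -0.089 to 0.32 for Apoc3 and -0.17 to 0.15 for Apoe. They ran from -0.042 to 0.42 for Apoc4, -0.018 to 0.45 for Lcat, -0.012 to 0.28 for Hnf4a and -0.045 to 0.27 for Creb3l3. The cause was not tested.

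With a replicate block, 0 members passed and the adjusted p for Apom was 0.342. Over all genes 53 were higher and 17 lower. Same-numbered samples deviated together with correlations of 0.026, 0.141, 0.114 and 0.104, not all over 0.1, and not every sample correlated best with its own number, so the numbers were not taken to pair the samples. Over all genes, 20 were higher and 1 lower when only probes above background on all arrays were tested, and leaving out single arrays gave 25 to 69 higher and 2 to 14 lower, with 25 higher without 8-week replicate 1, 33 without 80-week replicate 3 and 35 without 80-week replicate 4.

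With 4 samples an age, the 95% intervals for the members are wide, the narrowest being -0.65 to 0.37 for Apoc2, and a change within them is compatible with the data. The scaled values of Apoe ranged over 1.08 log2 units, beside 1.19 for the scaling factor.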
